A study of Mus musculus with 15 samples.

Results

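The change in gene expression between 8 h and 22 h of stimulation with immunofilaments (IF) was measured in mouse CD8+ T cells. Immunofilaments are synthetic filaments, which here carried MHC class I loaded with the peptide SIITFEKL together with interleukin-2 (IL-2) and were used at 5 ng/ml. The libraries were chosen by their labels: all 3 of IF at 22 h and all 3 of IF at 8 h, which are 6 of the 15 libraries of the series. All 15 were made from T cells of spleen and lymph nodes of female OT-I mice, strain C57BL/6-Tg(TcraTcrb)1100Mjb/Crl, whose transgenic receptor recognises an ovalbumin peptide, so that every group shares 1 receptor specificity. The other 9 libraries are 3 of unstimulated cells at 0 h and 3 each of cells cultured for 8 h or 22 h with dendritic cells (DC), grown with Flt3 ligand and pulsed with SIITFEKL. A stimulated well held 50000 T cells, with 20000 DC where these were the stimulus, and viable CD8+ CD103− cells were sorted after culture. The ages of the mice are not given in the sources used here. The comparison of both IF times asks what changes under 1 stimulus from the first to the second time point, with no uncultured cells on either side.

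As background, a naive CD8+ T cell that binds its antigen grows for many hours before it first divides. Early on it induces surface receptors and transcription factors of the AP-1, NF-kB and interferon-regulated families. Replication licensing and nucleotide synthesis are then switched on by E2F factors as the cell passes from G1 into S phase. Interferon-stimulated genes are driven by transcription factors activated downstream of interferon receptors, through a promoter motif with paired GAAA blocks. Interferon-gamma also induces guanylate-binding proteins and the machinery that loads peptides on MHC class I.

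Depth was lower at 8 h, with 2892874 to 5572030 counts per IF library, than at 22 h, with 7991069 to 19806730. The CD8 T cell list was present in all IF libraries: its 11 measured members summed to 5838 to 6086 CPM at 8 h and 6787 to 7874 CPM at 22 h, where CPM is the count per 1000000 of the scaled library size. Cd4 had 29 counts over all 15 libraries, too few to test, while the 2 tested genes of the CD4 T cell list, Zbtb7b and Cxcr5, both had positive log2 fold changes with a median of 1.14, and Cxcr5 passed the threshold. Markers of other cells were measured as well. The 8 tested B cell genes summed to 39.1 to 69.0 CPM at 8 h and to 78.2, 134 and 116 CPM in replicates 1, 2 and 3 at 22 h. All 8 had a positive log2 fold change, with 0 past the threshold by edgeR and 1 by DESeq2. Of the 8, 3 (37.5%) had an unadjusted p under 0.05, against 15% of all genes. The 4 tested macrophage genes summed to 6.42 to 11.3 CPM at 8 h and 15.6 to 22.1 CPM at 22 h. The dendritic cell list, much of which other cells share, summed to 422.5 to 588 CPM and 469.5 to 758 CPM, while Zbtb46, Clec9a and Cd209a were too low to test. The 7 tested natural killer cell genes summed to 475 to 517.5 CPM and 599.9 to 748 CPM, and 2 of them rose. The part of other cells in the results was not tested. In these bulk samples fewer cells of a type and less RNA per cell cannot be told apart.

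Replicates 2 and 3 of IF 22 h share a technical profile. In both of them 127 genes lay more than 2-fold below each of the 13 other libraries and 1 gene, Nrgn, lay above, while the next pair among the 105 pairs of libraries had 34 genes below. Mitochondrial ribosomal RNA took 0.179% and 0.146% of their counts, against 3.17% in replicate 1 of IF 22 h and 2.30% to 2.37% at IF 8 h. The profile holds libraries of 1 group only, so it and the time cannot be told apart for these 2 libraries. Replicate 1 is shown separately where values are given by library or for replicate 1 alone, and other values at 22 h join all replicates. The titles number the libraries of each group Don1 to Don3, the same in all groups, without saying what Don stands for or whether these are separate animals, so p-values measure the spread between these samples only. Values below are given in the order of replicates 1, 2 and 3, with log2 fold changes ± SE.

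Between 8 h and 22 h with immunofilaments, 10 of 45 genes of DNA replication and the calmodulin-binding gene Nrgn rose, while 11 of 30 interferon-stimulated genes, 11 of 22 genes of guanylate-binding proteins and antigen presentation and 5 of 17 NF-kB genes fell. Of 10831 genes tested by edgeR's quasi-likelihood test, 121 (1.12%) passed an adjusted p of 0.05, of which 69 (0.637%) were higher and 52 (0.48%) lower at 22 h. The median log2 fold change was −0.01 over all genes, 1.42 over the 69 and −1.35 over the 52. An unadjusted p under 0.05 was found for 1622 genes (15%), and 366 of the 10831 passed by DESeq2. The CPM ranges of both groups did not overlap for 120 of the 121 genes, and for 2327 of all genes (21.5%). The first count is largely fixed by the choice of the 121 genes on the same libraries. The count was 52, 75 and 25 when replicate 1, 2 or 3 of IF 8 h was left out, and 541, 26 and 24 when replicate 1, 2 or 3 of IF 22 h was. All 121 genes kept their direction in these 6 fits, and 13 stayed past the threshold in all of them, among them Lad1, Rtp4, Mcm4, Fcer1g, Jun, Lgals1, Relb, Dtl, Oasl2, Ctla2a, Nrgn and Fhit. Sox13, Slc39a1 and Exoc2, chosen for this count after their values were seen, passed in none.

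Replicate 1, which lacks the technical profile, moved the same way in the genes that passed with all libraries. It lay beyond the range of the 3 libraries at 8 h, in the direction of the change, for 69 of the 69 genes higher and 51 of the 52 genes lower at 22 h, where replicates 2 and 3 did so for 120 and 121 of the 121. Since replicate 1 helped to choose these genes, the counts are a description. The exception was Ifit1, an interferon-induced RNA-binding protein, for which replicate 1 lay inside the range at 8 h. With replicate 1 as the only library at 22 h, the median log2 fold change was 1.18 over the 69 genes and −1.31 over the 52. That fit, which takes the spread of the lone library from the other groups, had 0 of 11889 genes past the threshold and 654 (5.5%) at an unadjusted p under 0.05. With replicates 2 and 3 alone, 541 of 11151 genes (4.85%) passed, 185 higher and 356 lower, and 122 of them belonged to the technical profile. Replicate 1, which did not help to choose these 541, lay beyond the 8 h range in the direction of the change for 283 (52.3%). For 167 it lay on the other side of the 8 h mean. Among the 419 outside the profile the numbers were 265 (63.2%) and 91. The fits with replicate 1 alone and with replicates 2 and 3 alone use the same 8 h libraries. Of the 121 genes, Nrp, Xaf1 and Gbp7 belonged to the profile on its low side and Nrgn on its high side, and for these replicate 1 had the smaller difference.

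**Figure D1:**
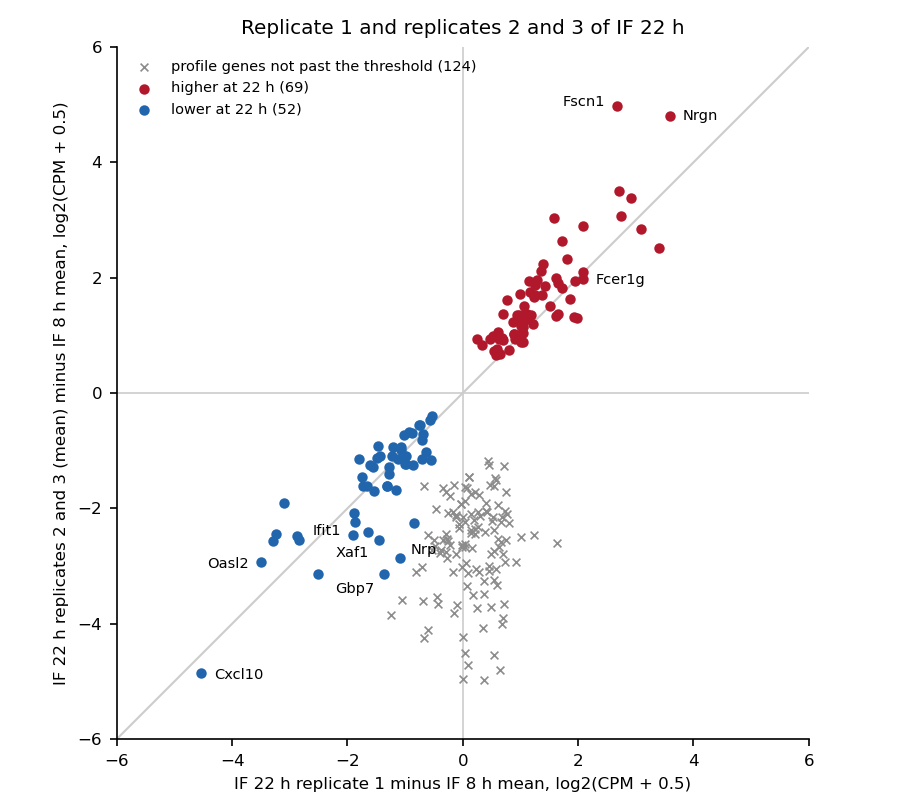
Difference from the IF 8 h mean on the scale of log2(CPM + 0.5), for replicate 1 of IF 22 h (horizontal axis) and for the mean of replicates 2 and 3 (vertical axis); points are the 69 genes higher and 52 genes lower at 22 h, crosses the 124 genes of the technical profile that did not pass the threshold, and the diagonal marks equal values. All 121 points lie on the same side of 0 on both axes, while the crosses lie below 0 on the vertical axis and on both sides of 0 on the horizontal one.

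Interferon-stimulated genes had the lowest median of the 39 gene lists. Of 30 tested, 11 fell and 0 rose, and the list's median log2 fold change was −1.50. In single libraries at 22 h the median difference from the 8 h mean was −1.50, −1.28 and −1.45, and with replicate 1 alone at 22 h the median was −1.64. Of the 30 genes, 26 were lower and 1 higher at an unadjusted p under 0.05, and the 2 genes with positive values were Ly6c2 and Ifit2. Those that fell include the chemokine gene Cxcl10, the oligoadenylate synthetase-like Oasl2, the ubiquitin-like modifier Isg15, Ifit1, Xaf1, Rtp4, the exonuclease Isg20, the transcription factor Irf7, the nucleic acid sensor Zbp1 and Ifi27l2a.

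The upstream sequences of 3 of the genes that fell are shown because they hold the paired GAAA motif (GAAANNGAAA on either strand) through which interferon-regulated factors act. Windows run from 250 bases before to 50 bases after the annotated start in RefSeq, on GRCm38.p6, read 5′ to 3′ along the gene, with the motif in capitals. They are Cxcl10 (chr5:92348840-92349139, minus strand), Isg15 (chr4:156200769-156201068, minus strand) and Gbp2 (chr3:142620413-142620712, plus strand).
Cxcl10: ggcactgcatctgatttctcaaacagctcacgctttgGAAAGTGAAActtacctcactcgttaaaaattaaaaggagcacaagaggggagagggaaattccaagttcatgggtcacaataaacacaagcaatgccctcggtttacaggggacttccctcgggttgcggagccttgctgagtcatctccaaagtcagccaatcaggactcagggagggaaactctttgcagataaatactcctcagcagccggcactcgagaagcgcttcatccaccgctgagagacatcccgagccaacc
Isg15: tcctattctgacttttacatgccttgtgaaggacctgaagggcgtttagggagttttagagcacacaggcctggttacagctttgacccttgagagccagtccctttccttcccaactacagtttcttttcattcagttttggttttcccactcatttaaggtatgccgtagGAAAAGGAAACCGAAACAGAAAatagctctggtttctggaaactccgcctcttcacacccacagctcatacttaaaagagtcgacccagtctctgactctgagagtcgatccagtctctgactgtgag
Gbp2: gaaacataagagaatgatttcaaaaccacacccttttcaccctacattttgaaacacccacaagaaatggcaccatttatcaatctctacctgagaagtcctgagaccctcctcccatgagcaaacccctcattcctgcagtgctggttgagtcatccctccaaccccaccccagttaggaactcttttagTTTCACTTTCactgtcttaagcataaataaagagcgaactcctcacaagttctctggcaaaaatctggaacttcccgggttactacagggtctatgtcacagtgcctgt
The match lies 213 bases before the start in Cxcl10 and 59 before it in Gbp2, and Isg15 has 3 overlapping matches from 78 to 66 bases before the start. Among genes with a window, the motif was found on either strand in 13 of 37 genes lower at 22 h (35.1%), 2 of 51 genes higher (3.92%) and 311 of all 8165 (3.81%). It was found in 11 of 21 genes of the interferon-stimulated list (52.4%) and 0 of 37 of the replication list. This motif was added after the results were seen, and a match is only a description of these letters. Oasl2 and Irf7, which fell, have no match in this window.

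Cxcl10 (chromosome 5), a chemokine that draws CXCR3-bearing T cells, was at 28.4, 20.6 and 66.98 CPM at 8 h and 1.19, 0.956 and 0.766 CPM at 22 h. The highest library at 22 h was more than 10-fold below the lowest at 8 h, and the log2 fold change was −5.35 ± 0.86 (SE, adjusted p = 0.0083). Oasl2 (chromosome 5) was at 27.5, 10.3 and 33.8 CPM at 8 h and 1.67, 3.11 and 2.35 CPM at 22 h, a change of −3.33 ± 0.51 (adjusted p = 0.0074). Isg15 (chromosome 4), whose product is attached to other proteins during an interferon response, was at 7.67, 1.99 and 10.4 CPM at 8 h and 0.238, 0.478 and 1.02 CPM at 22 h. It changed by −3.36 ± 0.56 (adjusted p = 0.0083), and all 3 libraries at 22 h lay below all 3 at 8 h. Xaf1 and Rtp4 had changes of −2.22 ± 0.37 and −1.69 ± 0.26 (adjusted p = 0.0083 and 0.0074), and in Xaf1, a profile gene, replicate 1 at 7.62 CPM stood above replicates 2 and 3 at 3.35 and 3.27, with 23.2, 23.9 and 18.2 at 8 h. Ifit1 varied widely at 8 h, at 54.6, 6.63 and 49.6 CPM, so that its ranges overlap with the 9.52, 7.29 and 5.36 CPM at 22 h.

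Replicate 2 of IF 8 h had the lowest value of its group for Cxcl10, Oasl2, Rtp4 and Ifit1, and its median over the list was 0.54 below the 8 h mean, against 0.17 and 0.26 above it in replicates 1 and 3. Cxcl10 shares exons with Art3 on the other strand, and Rtp4 with Gm45338 on the same strand, so reads of either gene may be included. Oasl2 and Rtp4 stayed past the threshold with any 1 of the 6 IF libraries left out. The adjusted p was 0.061 for Cxcl10 without IF 22 h replicate 3, 0.051 and 0.051 for Isg15 without IF 8 h replicate 3 and IF 22 h replicate 2 and 0.051 and 0.061 for Xaf1 without IF 22 h replicates 2 and 3. Ifit1, Irf7 and Ifi27l2a missed the threshold unless the library left out was IF 8 h replicate 2 or IF 22 h replicate 1, with adjusted p-values of 0.09 to 0.18. Isg20 missed the threshold unless the library left out was IF 8 h replicate 2 or IF 22 h replicate 1 or 3, with an adjusted p of 0.11. Zbp1 missed the threshold unless the library left out was IF 8 h replicate 2 or IF 22 h replicate 2, with adjusted p-values of 0.053 to 0.2. The log2 fold change moved by more than 1.5-fold to −4.69 without IF 8 h replicate 3 for Cxcl10 and −4.19 without IF 22 h replicate 3 for Isg15. The number of the 30 genes past the threshold was 6, 13 and 5 when replicate 1, 2 or 3 of IF 8 h was left out and 11, 5 and 5 when replicate 1, 2 or 3 of IF 22 h was.

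Guanylate-binding proteins and genes of MHC class I presentation were lower together. All 22 tested members had a negative log2 fold change, 11 fell, and the median was −0.91, with −0.99 for replicate 1 alone. Gbp2 (chromosome 3), an interferon-gamma-induced GTPase, was the most abundant of its family, at 1078, 801 and 1490 CPM at 8 h and 153, 232 and 174 CPM at 22 h. Its log2 fold change was −2.59 ± 0.47 (adjusted p = 0.014), and no library at 22 h reached the lowest at 8 h. Gbp7 was at 276, 166 and 377 CPM at 8 h and 106, 39.1 and 23.9 CPM at 22 h, a change of −2.28 ± 0.43 (adjusted p = 0.016). In this profile gene replicate 1 was the highest of the 22 h libraries, and its own log2 fold change was −1.36. Gbp6 was at 57.6, 22.2 and 62.96 CPM at 8 h and 5.12, 16.97 and 8.83 CPM at 22 h, with a change of −2.22 ± 0.51 (adjusted p = 0.047), and here replicate 1 was the lowest. Gbp3, Gbp4 and the immunity-related GTPase Irgm2 changed by −1.64 to −1.38.

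The presentation genes moved less. B2m, the light chain of MHC class I, was at 4743, 4548 and 4824 CPM at 8 h and 3238, 3741 and 3370 CPM at 22 h, and the heavy chain H2-K1 at 4149, 4275 and 5007 CPM at 8 h and 3027, 3382 and 3066 CPM at 22 h. Their log2 fold changes were −0.45 ± 0.10 and −0.50 ± 0.12 (adjusted p = 0.044 and 0.046), small shifts in which no library at 22 h reached those at 8 h. Tap1, a subunit of the peptide transporter, its partner Tapbp and Nlrc5, the activator of MHC class I genes, changed by −0.82 ± 0.18, −0.70 ± 0.15 and −0.78 ± 0.17. Psme2, an interferon-inducible proteasome activator, was the 1 gene of 28 proteasome genes past the threshold, at 330.1, 264 and 339.7 CPM at 8 h and 148, 172 and 153 CPM at 22 h (−0.98 ± 0.19, adjusted p = 0.019). Members of the guanylate-binding and MHC families resemble each other, and Gbp4, Gbp6, Gbp7 and Irgm2 share exons with neighbours on the same strand, so counts can be split or shared between them. Of the 22 genes, 18 had an unadjusted p under 0.05 and 15 passed by DESeq2. Their number past the threshold was 1, 8 and 0 when replicate 1, 2 or 3 of IF 8 h was left out and 11, 0 and 0 when replicate 1, 2 or 3 of IF 22 h was. Gbp2 missed the threshold unless the library left out was IF 8 h replicate 1 or 2 or IF 22 h replicate 1, with adjusted p-values of 0.051 to 0.076. Gbp7, Gbp3, Gbp4, Irgm2, Tap1, Tapbp and Psme2 missed the threshold unless the library left out was IF 8 h replicate 2 or IF 22 h replicate 1, with adjusted p-values of 0.051 to 0.21. Gbp6 missed the threshold unless the library left out was IF 8 h replicate 2, with adjusted p-values of 0.056 to 0.21. Nlrc5, B2m and H2-K1 missed the threshold unless the library left out was IF 22 h replicate 1, with adjusted p-values of 0.056 to 0.21. The log2 fold change moved by more than 1.5-fold to −3.12 without IF 22 h replicate 1 for Gbp7.

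Several genes of the NF-kB pathway fell. Of 17 tested NF-kB genes 5 fell and 0 rose, with a median of −0.73, and −0.63 for replicate 1 alone. Relb (chromosome 7), the subunit of the non-canonical pathway, was at 60.5, 56.4 and 68.6 CPM at 8 h and 22.5, 27.9 and 29.4 CPM at 22 h, and Nfkb2 (chromosome 19), its partner, at 203, 186 and 172 CPM at 8 h and 79.99, 89.4 and 84.7 CPM at 22 h. The groups lay apart in both, with log2 fold changes of −1.22 ± 0.19 and −1.14 ± 0.20 (adjusted p = 0.0074 and 0.013). The inhibitors Nfkbia and Tnfaip3, which are induced by NF-kB and limit it, changed by −0.89 ± 0.18 and −1.10 ± 0.26 (adjusted p = 0.027 and 0.048), and the co-regulator Bcl3 by −1.08 ± 0.25 (adjusted p = 0.047). Birc3, an inhibitor of apoptosis, was at 29.8, 39.5 and 34.3 CPM at 8 h and 16.4, 21.6 and 18.9 CPM at 22 h and did not pass (adjusted p = 0.053). Nfkb2 shares exons with Psd on the other strand. Relb stayed past the threshold with any 1 of the 6 IF libraries left out. Nfkb2 missed the threshold unless the library left out was IF 8 h replicate 2 or 3 or IF 22 h replicate 1, with adjusted p-values of 0.051 to 0.071. Nfkbia and Bcl3 missed the threshold unless the library left out was IF 22 h replicate 1, with adjusted p-values of 0.057 to 0.23. Tnfaip3 missed the threshold unless the library left out was IF 8 h replicate 2, with adjusted p-values of 0.066 to 0.2. The count for the list was 1, 3 and 2 when replicate 1, 2 or 3 of IF 8 h was left out and 5, 1 and 1 when replicate 1, 2 or 3 of IF 22 h was.

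Jun (chromosome 4), a subunit of the AP-1 factor, was at 45.9, 47.7 and 45.3 CPM at 8 h and 7.74, 5.74 and 4.03 CPM at 22 h. Its 3 libraries at 8 h differed by less than 10% and all 3 at 22 h were more than 5-fold lower, for a log2 fold change of −3.02 ± 0.46 (adjusted p = 0.0074). It was the 1 gene of 17 tested immediate early factors that passed. The list's median log2 fold change was −0.28, and 5 of the 17 values were positive. Jun shares exons with Junos on the other strand. Unstimulated cells, not part of the contrast, had 662 ± 194 CPM of Jun (mean ± SD, n = 3). Ppp1r15a, which ends the block of translation in stressed cells, was at 64.8, 34.1 and 46.1 CPM at 8 h and 19.04, 12.9 and 18.4 CPM at 22 h and fell by 1.53 on the log2 scale (adjusted p = 0.014). Cflar, a brake on caspase activation, was at 114, 64.3 and 81.2 CPM at 8 h and 52.9, 33.9 and 44.1 CPM at 22 h (−0.99 ± 0.23, adjusted p = 0.047), the 1 of 20 survival and death genes past the threshold. Srgn, the proteoglycan core that packs cytotoxic granules, was at 8234, 7132 and 7343 CPM at 8 h and 4516, 5276 and 5082 CPM at 22 h, and fell by 0.61 ± 0.12 (adjusted p = 0.018). Jun stayed past the threshold with any 1 of the 6 IF libraries left out. Ppp1r15a, Cflar and Srgn missed the threshold unless the library left out was IF 8 h replicate 2 or IF 22 h replicate 1, with adjusted p-values of 0.051 to 0.26.

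**Figure D2:**
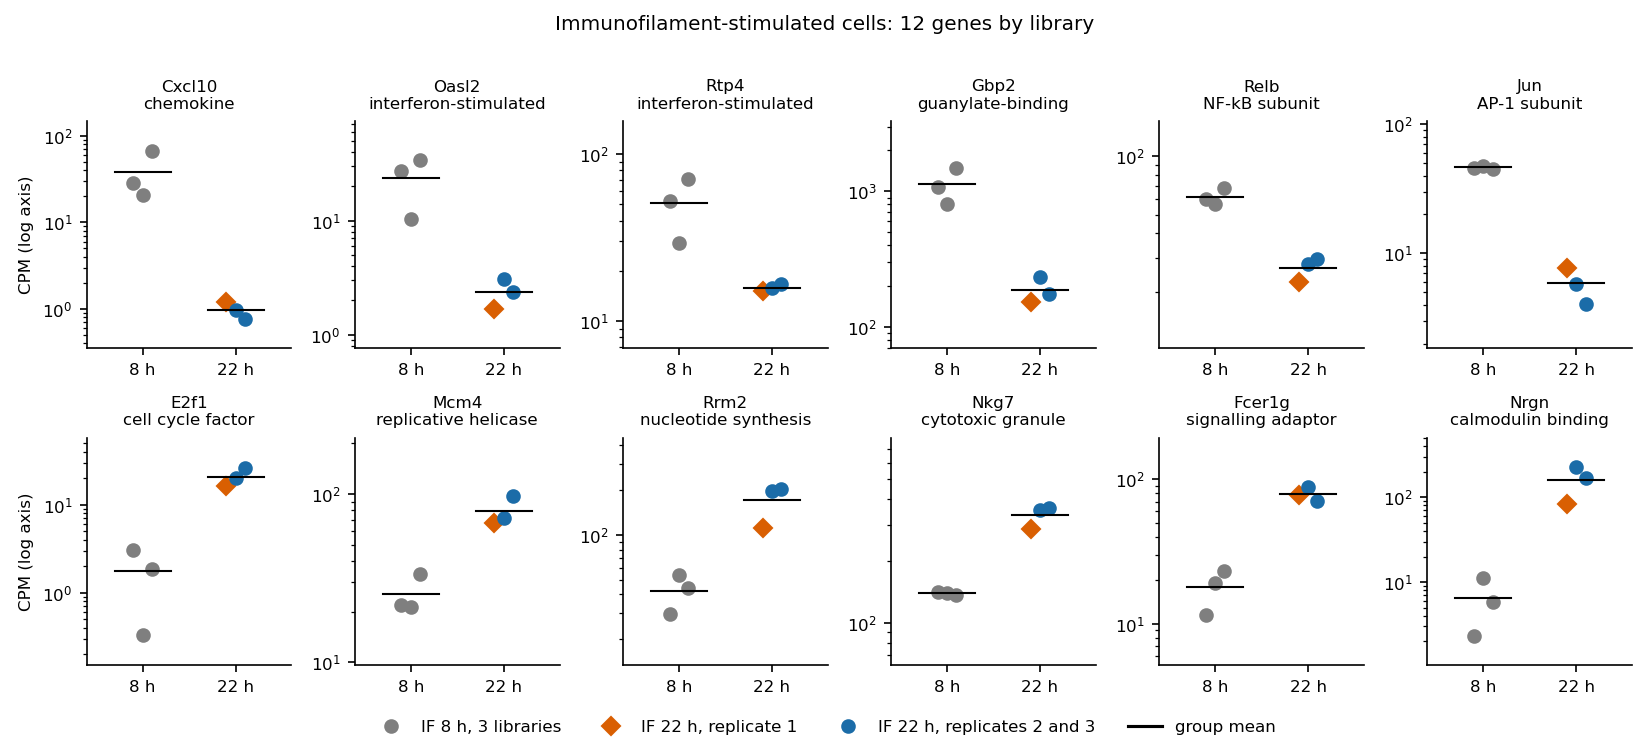
CPM of 12 genes in each library on log axes with a scale of their own, for IF 8 h (grey circles), replicate 1 of IF 22 h (orange diamond) and replicates 2 and 3 of IF 22 h (blue circles); lines are group means. In every panel the 3 libraries at 22 h lie on 1 side of the 3 at 8 h, replicate 1 included, in genes that were chosen among those past the threshold.

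Several genes of G1, S phase and DNA replication rose. Of 45 tested, 10 were higher and 0 lower past the threshold, 43 had a positive log2 fold change, and 32 had an unadjusted p under 0.05. The median was 1.25, and in single libraries at 22 h the median difference from the 8 h mean was 0.75, 1.25 and 1.30. With replicate 1 alone at 22 h the list's median was 0.83, below the value of all 3 libraries. Unstimulated cells, not part of the contrast, had a higher mean CPM than IF 8 h in 37 of the 45 genes (82.2%). The same held for 63 of all 69 genes higher at 22 h (91.3%), 14 of the 52 lower (26.9%) and 48.6% of all genes tested. The rise was thus measured from an 8 h level that lay below that of unstimulated cells in most of these genes. The genes that rose cover several steps and include the transcription factor E2f1; the loader Cdc6 and the helicase subunits Mcm3, Mcm4 and Mcm5, which license origins; Gins2, part of the active helicase; Rrm2 and Dut, which supply nucleotides; and Lig1, which joins Okazaki fragments. Dtl, outside the list, marks the licensing factor Cdt1 for destruction in S phase and rose with them.

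Windows of 3 of these genes are shown because they hold the E2F motif TTTCCCGC or TTTGGCGC (or the complements GCGGGAAA and GCGCCAAA), in capitals, on the same build and span as above. They are Dtl (chr1:191575495-191575794, minus strand), Cdc6 (chr11:98907901-98908200, plus strand) and Mcm5 (chr8:75109259-75109558, plus strand).
Dtl: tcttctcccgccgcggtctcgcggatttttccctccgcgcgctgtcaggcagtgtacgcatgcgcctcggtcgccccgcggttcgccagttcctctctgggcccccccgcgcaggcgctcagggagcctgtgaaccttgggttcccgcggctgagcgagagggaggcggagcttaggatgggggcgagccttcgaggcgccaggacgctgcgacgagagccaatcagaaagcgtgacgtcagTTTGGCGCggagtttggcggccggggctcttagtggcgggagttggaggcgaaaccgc
Cdc6: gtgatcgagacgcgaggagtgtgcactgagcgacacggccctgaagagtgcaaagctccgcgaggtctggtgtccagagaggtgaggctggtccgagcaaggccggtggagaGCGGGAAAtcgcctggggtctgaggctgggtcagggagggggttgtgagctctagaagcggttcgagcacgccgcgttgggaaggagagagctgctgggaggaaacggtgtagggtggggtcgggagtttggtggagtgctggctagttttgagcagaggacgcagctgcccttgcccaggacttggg
Mcm5: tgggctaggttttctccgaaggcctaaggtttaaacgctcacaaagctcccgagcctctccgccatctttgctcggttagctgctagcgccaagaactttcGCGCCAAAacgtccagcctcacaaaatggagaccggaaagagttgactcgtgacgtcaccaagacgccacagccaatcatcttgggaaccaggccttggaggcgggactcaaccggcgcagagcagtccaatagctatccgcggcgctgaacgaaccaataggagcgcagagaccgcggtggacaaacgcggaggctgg
The match lies 8 bases before the start in Dtl, 138 in Cdc6 and 149 in Mcm5. It was found in 13 of the 37 replication genes with a window (35.1%), in 4 of 51 genes higher at 22 h (7.84%), in 2 of 37 genes lower (5.41%) and in 3.78% of all 8165. E2f1 and Rrm2 have no match in this window. CCAAT, the motif of NF-Y, was in 41.2% of genes higher, 27.0% of genes lower and 43.4% of all.

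E2f1 (chromosome 2) was at 3.03, 0.332 and 1.88 CPM at 8 h and 16.4, 19.96 and 26.03 CPM at 22 h, a log2 fold change of 3.43 ± 0.58 (adjusted p = 0.0083). Dtl (chromosome 1) was at 5.00, 0.663 and 5.63 CPM at 8 h and 27.3, 45.8 and 49.7 CPM at 22 h, a change of 3.37 ± 0.57 (adjusted p = 0.0083). In both genes every library at 22 h was more than 4-fold above the highest at 8 h. Mcm4 (chromosome 16) started from a higher level, at 21.8, 21.2 and 33.5 CPM at 8 h and 67.01, 72.2 and 97.95 CPM at 22 h, and changed by 1.64 ± 0.25 (adjusted p = 0.0074). Rrm2 (chromosome 12), the regulated subunit of ribonucleotide reductase, was at 29.6, 53.7 and 44.2 CPM at 8 h and 112, 198 and 204 CPM at 22 h. Its change was 2.02 ± 0.47 (adjusted p = 0.048), and replicate 1 stood between the 8 h libraries and replicates 2 and 3. Lig1 was at 7.32, 12.9 and 12.1 CPM at 8 h and 42.7, 34.8 and 53.1 CPM at 22 h (2.04 ± 0.34, adjusted p = 0.0083), with replicate 1 between the other two 22 h libraries. Gins2, Cdc6, Mcm5, Dut and Mcm3 changed by 1.40 to 2.99 (adjusted p 0.013 to 0.044). Gins2 and Lig1 share exons with Gse1 and Zswim9 on the other strand. Dtl and Mcm4 stayed past the threshold with any 1 of the 6 IF libraries left out. The adjusted p was 0.056 for E2f1 without IF 8 h replicate 3 and 0.051 for Lig1 without IF 8 h replicate 1. Rrm2, Cdc6, Mcm5, Dut and Mcm3 missed the threshold unless the library left out was IF 22 h replicate 1, with adjusted p-values of 0.056 to 0.19. Gins2 missed the threshold unless the library left out was IF 8 h replicate 2 or IF 22 h replicate 1 or 2, with adjusted p-values of 0.061 to 0.081. The log2 fold change moved by more than 1.5-fold to 4.15 without IF 8 h replicate 1 for E2f1 and 3.61 without IF 8 h replicate 2 for Gins2. The list's count was 2, 5 and 2 when replicate 1, 2 or 3 of IF 8 h was left out and 15, 4 and 3 when replicate 1, 2 or 3 of IF 22 h was.

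Genes of G2 and mitosis gave no call. Of 37 tested, 0 passed by edgeR and 1 by DESeq2, and the median was 0.13. An unadjusted p under 0.05 was found for 3 (8.11%), below the 15% of all genes. The proliferation marker Mki67 was at 15.7, 23.9 and 20.1 CPM at 8 h and 19.2, 18.4 and 20.9 CPM at 22 h, with overlapping groups and a log2 fold change of −0.02 ± 0.35. Its sign changed with the processing. Mad2l1, a spindle checkpoint gene, was at 39.6, 30.2 and 22.5 CPM at 8 h and 42.9, 52.6 and 61.1 CPM at 22 h (0.76 ± 0.38, adjusted p = 0.37), and Tacc3, a spindle protein, at 6.60, 3.98 and 6.43 CPM at 8 h and 12.6, 11.8 and 12.6 CPM at 22 h (1.10 ± 0.39, adjusted p = 0.2).

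Of 20 tested effector molecules of T cells, 3 rose and 1 fell. The list's median log2 fold change was 0.17, and −0.03 with replicate 1 alone at 22 h. Its summed level was 9107 to 10460 CPM at 8 h and 7144, 8325 and 8402 CPM at 22 h. Srgn, which fell and whose values are given above, made up most of that sum at both times, so the sum does not describe the list. Nkg7 (chromosome 7), a granule membrane protein needed for degranulation, was at 141, 139 and 137 CPM at 8 h and 287, 355 and 361 CPM at 22 h, with libraries at 8 h within 5 CPM of each other. Its log2 fold change was 1.27 ± 0.24 (adjusted p = 0.016). Serpinb6b, a granzyme inhibitor, was at 68.7, 55.4 and 49.6 CPM at 8 h and 139, 192 and 188 CPM at 22 h (1.58 ± 0.26, adjusted p = 0.0083). The protease Ctsw, found in cytotoxic lymphocytes, was at 62.1, 66.6 and 58.9 CPM at 8 h and 96.1, 128 and 133 CPM at 22 h (0.93 ± 0.16, adjusted p = 0.0083). With Srgn, which fell, these were the 4 of 20 effector genes past the threshold. Gzmb, the main granzyme of activated cells, was at 36.6, 33.1 and 26.8 CPM at 8 h and 31.1, 33.7 and 48.9 CPM at 22 h and Ifng at 13.7, 8.95 and 3.48 CPM at 8 h and 7.50, 7.77 and 14.2 CPM at 22 h, and both groups overlapped (adjusted p = 0.88 and 0.96). Cst7, an inhibitor of granule proteases that is not in the list, rose by 1.29 ± 0.21 (adjusted p = 0.0083). The adjusted p was 0.056 for Serpinb6b without IF 8 h replicate 3 and 0.051 for Cst7 without IF 8 h replicate 3. Nkg7 missed the threshold unless the library left out was IF 22 h replicate 1, with adjusted p-values of 0.057 to 0.095. Ctsw missed the threshold unless the library left out was IF 8 h replicate 1 or 2 or IF 22 h replicate 1, with adjusted p-values of 0.051 to 0.066. The number of the list's genes that rose was 2, 2 and 0 when replicate 1, 2 or 3 of IF 8 h was left out and 3, 1 and 1 when replicate 1, 2 or 3 of IF 22 h was. Ctsw shares exons with Fibp on the other strand.

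Among receptors and adhesion genes, Fcer1g (chromosome 1), a signalling adaptor of Fc and natural killer receptors, was at 11.4, 19.2 and 23.04 CPM at 8 h and 77.5, 87.6 and 70.8 CPM at 22 h. All libraries at 22 h were more than 3-fold above the highest at 8 h (2.15 ± 0.29, adjusted p = 0.0045). Klrk1, the NKG2D receptor of natural killer and activated CD8+ T cells, was at 40.1, 41.1 and 31.1 CPM at 8 h and 69.6, 77.6 and 75.4 CPM at 22 h (0.99 ± 0.22, adjusted p = 0.041). Fcer1g and Klrk1 were the 2 of 7 tested natural killer cell genes past the threshold, and Ncr1, which defines those cells, had 36 counts over all 15 libraries and was not tested. Lgals1, which codes for galectin-1, was at 49.4, 41.4 and 57.3 CPM at 8 h and 116, 167 and 149 CPM at 22 h (1.54 ± 0.18, adjusted p = 0.0023), the smallest p of the 121 genes. Ctla2a, a cysteine protease inhibitor of activated T cells, was at 20.3, 28.2 and 24.4 CPM at 8 h and 70.6, 78.8 and 62.9 CPM at 22 h (1.55 ± 0.23). Cxcr3, the receptor for Cxcl10, was at 30.7, 21.9 and 18.8 CPM at 8 h and 47.5, 84.1 and 74.01 CPM at 22 h (1.52 ± 0.28, adjusted p = 0.016), so the receptor rose while its ligand fell. Cxcr5, a chemokine receptor best known on follicular cells, was at 11.1, 8.29 and 3.75 CPM at 8 h and 24.5, 20.1 and 20.5 CPM at 22 h (1.47 ± 0.34, adjusted p = 0.046). Fcer1g, Lgals1 and Ctla2a stayed past the threshold with any 1 of the 6 IF libraries left out. Klrk1 missed the threshold unless the library left out was IF 22 h replicate 1, with adjusted p-values of 0.075 to 0.18. Cxcr3 and Cxcr5 missed the threshold unless the library left out was IF 8 h replicate 1 or IF 22 h replicate 1, with adjusted p-values of 0.06 to 0.18. Cxcr5 shares exons with Bcl9l on the other strand.

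Thy1, a T cell surface glycoprotein, was at 769.5, 889.8 and 699.8 CPM at 8 h and 1177, 1317 and 1172 CPM at 22 h (0.64 ± 0.12, adjusted p = 0.02) and was the 1 of 11 measured CD8 T cell genes past the threshold. Cd8a was at 483, 419 and 481 CPM at 8 h and 541, 548 and 582 CPM at 22 h and did not pass (adjusted p = 0.33). Actg1, cytoplasmic actin, was at 3506, 3858 and 3505 CPM at 8 h and 5298, 5926 and 6075 CPM at 22 h (0.67 ± 0.11, adjusted p = 0.0083), and the actin regulators Vasp and Cotl1 changed by 0.75 ± 0.17 and 0.69 ± 0.16. Dtx1, a Notch target of naive cells, was at 9.99, 3.65 and 6.97 CPM at 8 h and 28.4, 18.6 and 16.6 CPM at 22 h (1.56 ± 0.35, adjusted p = 0.044), far under the 280.4 ± 25.9 CPM (mean ± SD, n = 3) of unstimulated cells. It was the 1 of 20 naive and homing genes past the threshold. The adjusted p was 0.051 and 0.051 for Actg1 without IF 8 h replicate 3 and IF 22 h replicate 3. Thy1 missed the threshold unless the library left out was IF 8 h replicate 2 or IF 22 h replicate 1, with adjusted p-values of 0.075 to 0.13. Vasp, Cotl1 and Dtx1 missed the threshold unless the library left out was IF 22 h replicate 1, with adjusted p-values of 0.051 to 0.23.

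Several genes outside these groups changed strongly. Nrgn (chromosome 9), which binds calmodulin, was at 2.32, 11.3 and 5.89 CPM at 8 h and 83.7, 228 and 168 CPM at 22 h, a log2 fold change of 4.71 ± 0.62 (adjusted p = 0.0043). Replicate 1 was the lowest of the 22 h libraries and still more than 7-fold above the highest at 8 h. Lad1 (chromosome 1), a filament-anchoring protein, went the other way, from 149, 78.2 and 125 CPM to 11.9, 18.1 and 24.6 CPM (−2.68 ± 0.37, adjusted p = 0.0047). Unstimulated cells had 6.16 ± 1.63 CPM of Lad1 and 5.63 ± 2.65 CPM of Nrgn (mean ± SD, n = 3 each). Fhit (chromosome 14) and Ptpn3 (chromosome 4) had 0 counts in all 3 libraries at 8 h and 2.86, 4.06 and 3.37 CPM and 4.76, 2.27 and 2.45 CPM at 22 h. Taking 3 counts over the 8 h group as the limit, 0.243 CPM, they were at least 14.1-fold and at least 13-fold higher (adjusted p = 0.0083 and 0.034). Fscn1 (chromosome 5), which bundles actin and is abundant in mature dendritic cells, was at 0.535, 0.663 and 0.268 CPM at 8 h and 5.83, 21.5 and 43.8 CPM at 22 h (5.59 ± 1.07, adjusted p = 0.018). It is on the dendritic cell list, in which it alone of 19 tested genes passed, and the DC libraries held 168, 132 and 126 CPM at 8 h and 94.8, 87.6 and 72.9 CPM at 22 h. Nrgn, Lad1 and Fhit stayed past the threshold with any 1 of the 6 IF libraries left out. Ptpn3 and Fscn1 missed the threshold unless the library left out was IF 22 h replicate 1, with adjusted p-values of 0.051 to 0.12. The log2 fold change moved by more than 1.5-fold to 5.35 without IF 8 h replicate 2 for Nrgn and 4.77 without IF 22 h replicate 3 for Fscn1.

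The guidance receptor gene Nrp2 was at 1.78, 0.332 and 0 CPM at 8 h and 9.76, 12.3 and 5.41 CPM at 22 h (3.47 ± 0.81) and the small GTPase gene Arl4d at 2.50, 3.31 and 12.6 CPM at 8 h and 22.6, 40.6 and 26.4 CPM at 22 h (2.30 ± 0.49). Ctnna1, which links cadherins to actin, and 1700097N02Rik changed by 2.07 ± 0.37 and 1.98 ± 0.35. Among the genes that fell, 2310014L17Rik and Nrp changed by −2.21 ± 0.41 and −2.11 ± 0.44, and Nrp, a profile gene, was at 29.6, 17.2 and 35.4 CPM at 8 h and 12.6, 4.54 and 2.45 CPM at 22 h. The adjusted p-values of these 6 genes were 0.012 to 0.048. 1700097N02Rik shares exons with Glo1 on the same strand. The adjusted p was 0.066 for Ctnna1 without IF 22 h replicate 3. Nrp2 and 2310014L17Rik missed the threshold unless the library left out was IF 8 h replicate 1 or IF 22 h replicate 1, with adjusted p-values of 0.056 to 0.19. Arl4d missed the threshold unless the library left out was IF 8 h replicate 3 or IF 22 h replicate 1, with adjusted p-values of 0.085 to 0.16. 1700097N02Rik and Nrp missed the threshold unless the library left out was IF 8 h replicate 2 or IF 22 h replicate 1, with adjusted p-values of 0.051 to 0.16. The log2 fold change moved by more than 1.5-fold to 5.79 without IF 8 h replicate 1 for Nrp2, 3.39 without IF 8 h replicate 3 for Arl4d and −3.01 without IF 22 h replicate 1 for Nrp.

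Of a panel of 14 genes, chosen with earlier results of these data known, only Nrgn passed in the fit of all 15 libraries. The other panel genes, most of them linked to activation or memory, did not pass in that fit. Cd69, an early activation marker, was at 112, 105 and 138 CPM at 8 h and 49.2, 52.7 and 60.7 CPM at 22 h, with groups that did not overlap and a log2 fold change of −1.13 ± 0.28 (adjusted p = 0.067). It passed with no low-count filter, by DESeq2, with only the groups compared and with the replicate block and only those groups (adjusted p = 0.00014, 0.0075, 0.017 and 0.041). Irf4, which scales with receptor signal, was at 148, 99.1 and 147 CPM at 8 h and 39.8, 52.1 and 61.2 CPM at 22 h (−1.36 ± 0.69, adjusted p = 0.37), and it passed with no low-count filter and with only the groups compared (adjusted p = 0.00046 and 0.021). Il2ra, the high-affinity IL-2 receptor chain, was at 34.8, 11.9 and 39.1 CPM at 8 h and 13.3, 17.4 and 18.5 CPM at 22 h, and its groups overlapped, as did those of Tnfrsf9, a costimulatory receptor, at 226, 134 and 160.5 CPM at 8 h and 123, 147 and 191 CPM at 22 h. Myc, a transcription factor of cell growth, was at 80.3, 47.4 and 49.8 CPM at 8 h and 34.2, 53.7 and 60.2 CPM at 22 h. Log2 fold changes of the panel genes Spry1, Il7r, Igfbp4, Tcf7, Mki67, Gzmb and Ifng lay between −0.15 and 0.33. Tcf7, a factor of naive and memory cells, was at 127, 109.7 and 123 CPM at 8 h and 169, 83.7 and 73.3 CPM at 22 h, with replicate 1 above and replicates 2 and 3 below all 8 h libraries, and Il7r was at 143, 179 and 136 CPM at 8 h and 252, 179 and 134 CPM at 22 h.

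Lists of growth and metabolism gave few calls. In ribosome biogenesis 37 of 40 tested genes had a negative log2 fold change, against 5491 of all 10831, and the list's median was −0.37. There 0 passed by edgeR and 0 by DESeq2, and 4 (10%) had an unadjusted p under 0.05, below the 15% of all genes. Glycolysis had 18 of 21 positive values, against 5327 of all 10831, and a median of 0.27. By edgeR 0 passed and by DESeq2 1, with 5 (23.8%) at an unadjusted p under 0.05. For replicate 1 alone the glycolysis median was −0.06. The 15 tested activation receptors had a median of −0.23, with 0 past the threshold by edgeR, 2 by DESeq2 and 5 (33.3%) at an unadjusted p under 0.05. In all, 52 of the 121 genes belonged to the lists, which hold 730 tested genes.

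**Figure D3:**
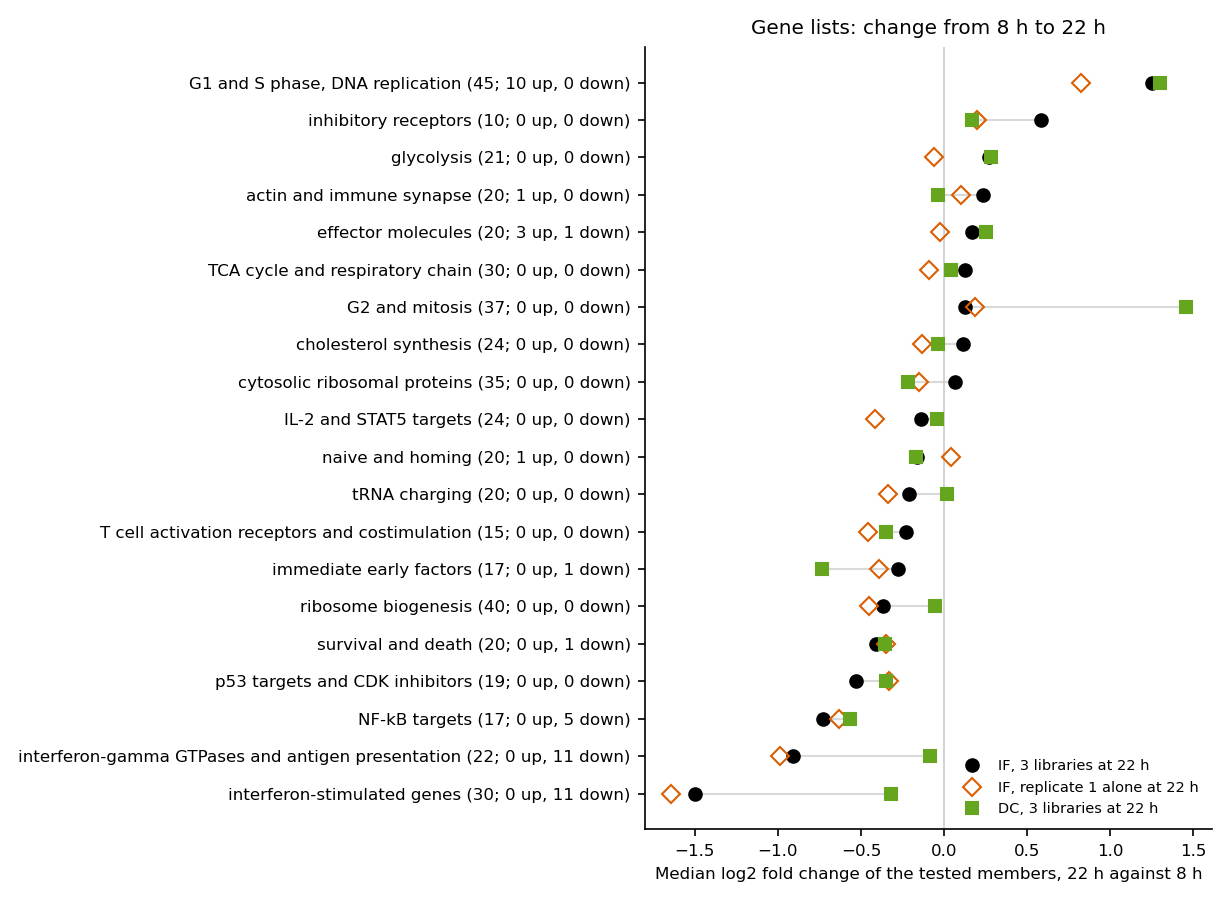
Median log2 fold change from 8 h to 22 h of the tested members of 20 gene lists, for IF with all 3 libraries at 22 h (black circles), IF with replicate 1 alone at 22 h (open orange diamonds) and DC (green squares); labels give the number of tested members and how many were higher or lower under IF past the threshold. The interferon lists lie at −1.50 and −0.91 under IF and at −0.32 and −0.08 under DC, the replication list at 1.25 and 1.30, and the G2 and mitosis list at 0.13 and 1.46.

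With dendritic cells as the stimulus, which share no library with the IF contrast, 52 genes (0.48%) passed between 8 h and 22 h, 41 higher and 11 lower, in the fit without pairing. Same-numbered DC libraries deviated together, and with the replicate number as a block the count was 49 over all 15 libraries and 166 (103 higher, 63 lower) over the DC groups alone, where it was 0 without the block. The DC and interaction values below come from the fit without pairing. The count was 1, 13 and 26 when replicate 1, 2 or 3 of DC 8 h was left out and 15, 19 and 138 when replicate 1, 2 or 3 of DC 22 h was. Under both stimuli 16 genes passed in the same direction and 0 in opposite directions, 13.2% of the IF genes and 30.8% of the DC genes. The 13 higher included Rrm2, Mcm4, Dut, Cdc6, Lig1, Dtl, Gins2, E2f1, Fam111a, Acap1, Gng2 and Nrgn, and the 3 lower were Srgn, Relb and Ppp1r15a. Of the 69 genes higher with IF, 52 had a positive value with DC, and of the 52 lower, 44 had a negative one, against 56.0% of all genes with the same sign. Their median under DC was 0.34 and −0.31. Nrgn rose with DC from 0.495, 0.124 and 0.881 CPM to 10.9, 19.2 and 4.02 CPM (4.50 ± 0.76, adjusted p = 0.013), at levels below those with IF at 22 h.

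The interaction term asks whether the change over time differed between the stimuli, and 0 genes (0%) passed it by edgeR. The smallest adjusted p was 0.082, 858 genes (7.92%) had an unadjusted p under 0.05, and 40 passed by DESeq2. Without IF 22 h replicate 1 the count was 279, and it was 1, 2, 1 and 3 without IF 8 h replicate 1, IF 8 h replicate 2, DC 8 h replicate 2 and DC 22 h replicate 3. Of the 121 IF genes, 80 had an unadjusted p under 0.05 for the interaction, 41 of those higher and 39 of those lower. The IF change that chose these genes is also a term of the interaction, so the count is a description only. The 5 genes with the smallest interaction p were Fhit, Anxa2, Glrx, Ccr9 and Lgals1, with adjusted p-values of 0.082 to 0.11. Glrx, a glutathione-dependent oxidoreductase, was at 61.4, 70.95 and 53.3 CPM at 8 h and 129, 128 and 127 CPM at 22 h with IF (1.05 ± 0.17, adjusted p = 0.0083), and at 72.9, 76.1 and 79.6 CPM at 8 h and 65.8, 56.4 and 59.9 CPM at 22 h with DC. Its adjusted p for IF 22 h against IF 8 h was 0.051 without IF 8 h replicate 3. Anxa2, which binds membranes and actin, changed by 0.51 ± 0.20 with IF and −1.19 ± 0.20 with DC (adjusted p = 0.24 and 0.013). The gut-homing receptor Ccr9 changed by −0.26 ± 0.14 and 0.84 ± 0.14 (adjusted p = 0.41 and 0.013).

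Values of the gene groups with DC are given beside those with IF. With DC the interferon-stimulated list had a median of −0.32, against −1.50 with IF. Cxcl10 was at 37.5, 191 and 63.4 CPM at 8 h and 16.1, 85.3 and 14.3 CPM at 22 h with DC (−1.34 ± 0.65, adjusted p = 0.56, interaction 0.38). Of the 30 interferon-stimulated genes 12 had an unadjusted interaction p under 0.05, as had 13 of the 22 genes of the guanylate-binding and presentation list. Among all genes the share was 7.92%. For the replication list the numbers were 3 of 45, with medians of 1.25 and 1.30 and 17 genes higher past the threshold with DC. For G2 and mitosis 15 of 37 genes had such a p, 6 passed with DC, and the median there was 1.46. The DC libraries differed: this list's median difference from the IF 8 h mean was 1.13, 1.73 and 0.19 at DC 22 h. It was −0.205, −0.42 and −0.02 at DC 8 h, and 0.16, 0.07 and 0.21 at IF 22 h. Mki67 was at 11.1, 12.8 and 9.54 CPM at 8 h and 44.5, 70.6 and 18.2 CPM at 22 h with DC (1.99 ± 0.35, adjusted p = 0.019, interaction 0.24). Jun was at 69.1, 117 and 75.3 CPM at 8 h and 28.2, 135 and 48.9 CPM at 22 h with DC (−0.30 ± 0.40, interaction 0.18), and Fcer1g at 19.7, 33.3 and 35.4 CPM at 8 h and 23.2, 32.6 and 42.1 CPM at 22 h (0.15 ± 0.27, interaction 0.11).

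**Figure D4:**
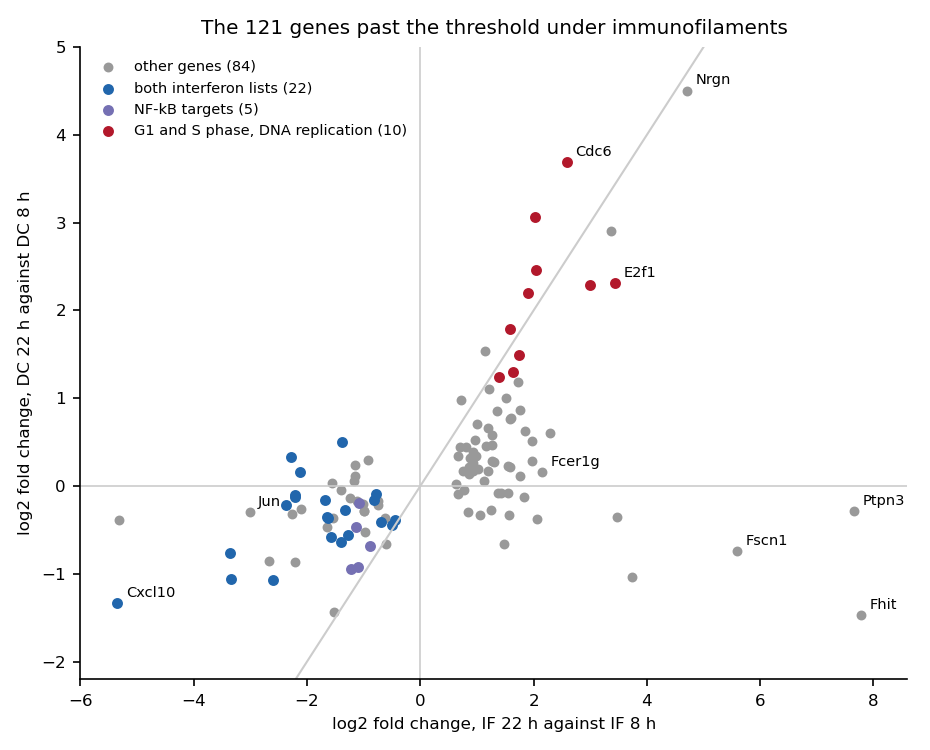
Log2 fold change from 8 h to 22 h with IF (horizontal axis) and with DC (vertical axis) for the 121 genes called with IF, coloured by gene list, with the diagonal of equal change; the horizontal positions of Fhit and Ptpn3, with 0 counts at IF 8 h, depend on the prior count. The 10 replication genes lie between 1.24 and 3.69 on the vertical axis, and the 22 interferon genes lie between −1.34 and 0.50 on the vertical axis.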

How the data were processed

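CEL-seq libraries of sorted T cells were aligned with BWA to mm10, per the submitters' processing notes; the counter, annotation, use of strand and use of molecular identifiers are not given in the sources used here. The authors deposited whole-number counts per gene for each library: 17493 genes, of which 370 had no count. Genes were kept by filterByExpr (minimum count 10, total 15), which left 10831, and scaled by TMM. The 15 libraries entered 1 edgeR 4.0.16 quasi-likelihood fit with a mean for each of the 5 groups (R 4.3.3, prior count 0.125). IF 22 h was set against IF 8 h, DC 22 h against DC 8 h, and both differences against each other, 2-sided, with Benjamini-Hochberg adjustment over all genes tested and a threshold of 0.05. The fit was tested on simulated data. CPM are counts per 1000000 of the TMM-scaled library size. DESeq2 1.42.0, other scalings, filters, a replicate block and left-out libraries were alternatives. Exon overlaps come from GENCODE vM21 and promoter windows from RefSeq.

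The gene lists, the panel and the rule for named genes were chosen with earlier results of these data known. The rule took up to 12 genes per direction by log2 fold change whose higher group averaged 50 counts or more and whose lower group had a library above 3 counts, with groups that did not overlap and replicate 1 of IF 22 h on the side of the difference. It also took up to 4 genes per list by p, a panel of 14, and 5 each by p for the interaction, for replicate 1 inside the 8 h range and for replicate 1 alone. Further genes named were chosen after their values were seen. Same-numbered libraries of the DC groups deviated together (r = 0.116, 0.399 and 0.238 across genes). The fit reported holds no term for the replicate number, so its DC and interaction values ignore this pairing, and the replicate block was an alternative. Of the differently numbered DC libraries, replicate 3 at 8 h with replicate 1 at 22 h (0.117) and replicate 1 at 8 h with replicate 3 at 22 h (0.107) were also positive. Some genes that the rule takes are not reported here.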

Additional observations from a re-analysis of the deposited data

How the results depend on the processing

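Against 121 genes past the threshold with IF, 502 passed with no low-count filter, 366 by DESeq2 (211 higher, 155 lower), 26 at an adjusted p of 0.01 and 0 with replicate 1 alone at 22 h, and 24 to 541 with 1 library left out. Same-numbered IF libraries did not deviate together (r = 0.0012, 0.0148 and −0.0031), and their numbers were not taken as pairs. At IF 22 h the technical profile sets replicates 2 and 3 apart from replicate 1, so such small values cannot show that pairing is absent. The replicate block gave 105, and the replicate block with only the groups compared gave 28. Without the block, only the groups compared gave 100, of which 63 were among the 121. With DC the count of 52 became 251 with no filter, 210 by DESeq2, 100 with the other quasi-likelihood setting of edgeR (legacy=FALSE, chosen after seeing the data), 0 with only the groups compared, 49 with the replicate block, 166 with the replicate block and only the groups compared, 4 at an adjusted p of 0.01, and 1 to 138 with 1 library left out. The interaction gave 155 with no filter, 40 by DESeq2 and 0 to 279 with 1 library left out. Distinct list members past the threshold, 52 at first, were 124 with no filter, 90 by DESeq2, 19 with the replicate block and only the groups compared, 15 at 0.01, 0 with replicate 1 alone and 11 to 82 with 1 library left out. The technical profile held 204 genes at 1.5-fold and 70 at 3-fold. The cause of these differences was not tested. The planned legacy=TRUE setting is the fit reported.

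Signs turned in 8 named panel genes, all short of the threshold. Replicate 1 alone gave −0.65 for Spry1, −0.049 for Gzmb, −0.24 for Ifng, 0.23 for Igfbp4 and 0.50 for Tcf7. For Mki67 the value was 0.0015 with no filter, 0.015 with legacy=FALSE and 0.0055 with the replicate block, and for Igfbp4 0.0078 with the block and 0.12 with the block and only the groups compared. With 1 IF library left out the values ran from −0.025 to 0.74 for Spry1, −0.22 to 0.71 for Ifng, −0.16 to 0.13 for Mki67, −0.43 to 0.90 for Igfbp4, −0.61 to 0.074 for Tcf7, −0.36 to 0.072 for Tnfrsf9 and −0.44 to 0.032 for Myc. With all libraries thinned to the smallest, 113 genes passed with IF, of which 96 were among the 121.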
